A study of Sus scrofa with 20 samples.

Results

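The genes described here are IL6, TNF, IL1A, IL1B and IL18, which encode interleukin 6, tumour necrosis factor and 3 cytokines of the interleukin 1 family. They were taken as every probe set whose platform gene symbol is one of these names, which gave 7 of the 23935 probe sets tested and 5 of 6765 named genes: 1 probe set for IL6, 1 for TNF, 2 for IL1A, 2 for IL1B and 1 for IL18. Kidney RNA came from 20 pigs randomized to neurologic death (ND) or control, with 1 single-colour Affymetrix porcine array per animal. The 10 ND animals had burr hole, catheters and anaesthesia, and then a balloon catheter inflated under the dura until neurologic death was established. The 10 control animals had the burr hole, the catheters and the anaesthesia without inflation. All 20 animals were ventilated for 6 h with 0.9% saline boluses of 2 cc/kg as needed to hold mean arterial pressure above 35 mmHg, so neither group is an unoperated animal, and the labels give no age, sex or breed. The comparison asks what neurologic death does to gene expression in the kidney. Each array was taken as 1 animal.

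These cytokines are the early messengers of inflammation. TNF and the interleukin 1 proteins bind receptors that activate NF-kB, a transcription factor that induces chemokines, adhesion molecules and IL6, while IL6 signals through Janus kinases and STAT3. IL1B and IL18 are made as inactive precursors that caspase-1 cuts, so their mRNA is only the first step of their release. In mouse and human kidney, tubular epithelium is a known source of IL18, and macrophages are a known source of TNF and IL1B.

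Signals are log2 values per probe set as deposited, with array medians between 5.09 and 5.35. Every difference is ND minus control on that log2 scale. Tests are limma's, with p-values adjusted by Benjamini and Hochberg's method across the 23935 probe sets and a threshold of 0.05. Background is the highest value of the 17 tag control probe sets, which match no pig RNA, over all arrays. It was 2.41. The array of ND_47 (ND animal number 47) stood apart: it was the highest of the 20 arrays for 1350 of the 6765 genes, and 48 genes lay over 2 log2 units above the next array there, against at most 8 on any other array. The 2 kidney epithelium markers with a platform symbol, the endocytic receptor LRP2 and the water channel AQP1, read 13.60 ± 0.44 and 13.00 ± 0.20 in ND, against 13.35 ± 0.18 and 13.02 ± 0.26 in controls (SD, n = 10 each), and their summed level was lowest in ND_47 (13.65 on the log2 scale, with controls between 14.03 and 14.35). Animal numbers were unevenly spread, since 7 ND animals and 1 control (Control_02) were numbered up to 100. What the number stands for is not given in the labels.

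None of the 7 cytokine probe sets passed the threshold, where 7.16% of all probe sets did. Unadjusted limma p-values were under 0.05 for 2 of the 7, the brighter IL1B probe set and IL18, against 29.3% of all probe sets. Group means were higher in ND for 5 of the 7, with a median difference of 0.09. Over all 6765 genes, each by its brightest probe set, 45.7% were higher and the median was -0.02. The count of 5 includes probe sets at background and turned on scaling. With arrays shifted to the same median, TNF (-0.0071) and the dimmer IL1B probe set (-0.0022) were lower in ND. With arrays shifted to the same mean tag level, both IL1A probe sets were higher (0.016 and 0.0044). Detection separated the genes: IL18 and the brighter IL1B probe set were above background on all 20 arrays, whereas IL6, TNF and IL1A read at background on every control array. In whole tissue, fewer cells of a type and less RNA per cell cannot be told apart.

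**Figure D1:**
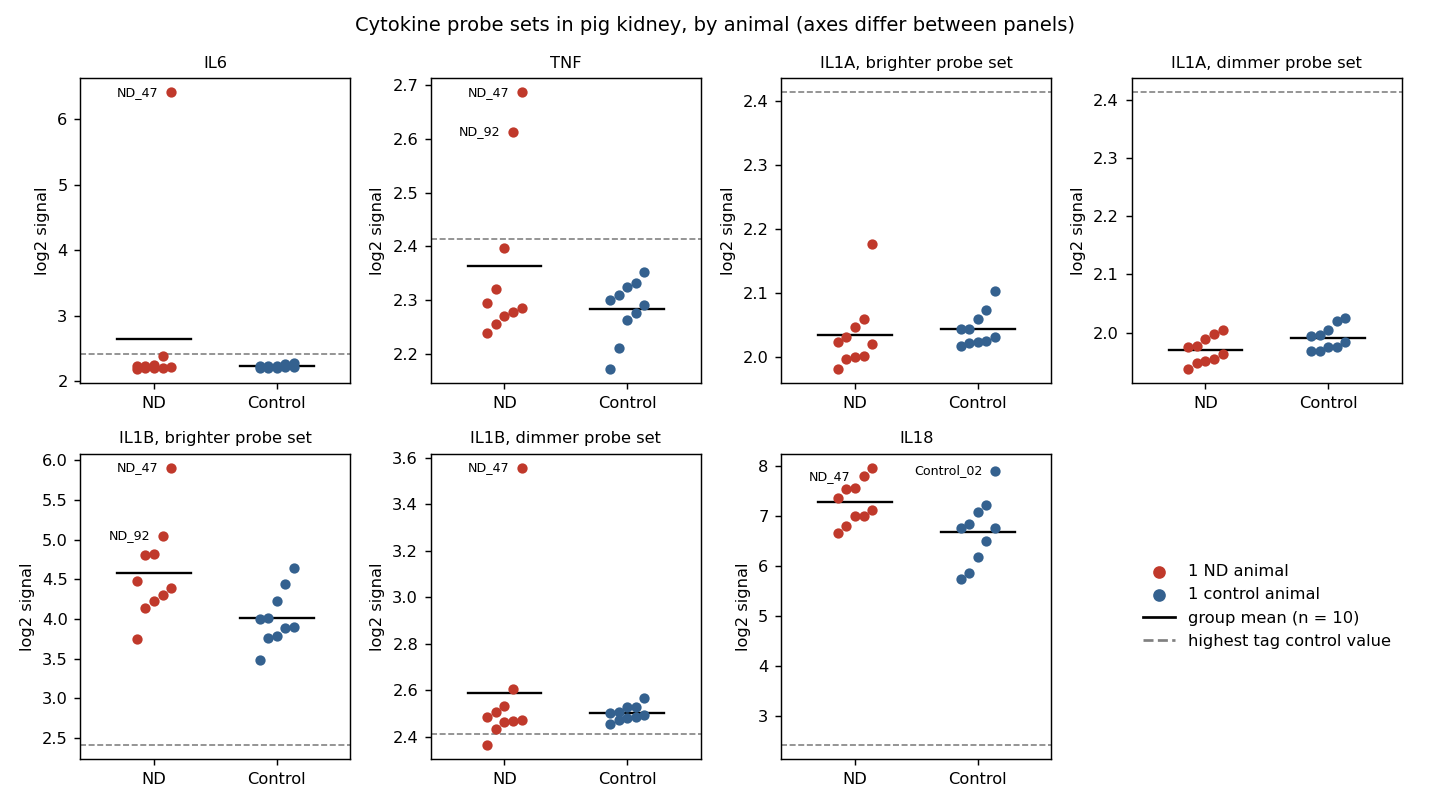
Each panel plots the log2 signal (vertical axis, scaled separately per panel) of 1 cytokine probe set in the 10 ND animals, left, and the 10 control animals, right; bars are group means and the dashed line is the highest tag control value, 2.41. IL6 exceeded that line in ND_47 alone, ND_47 and ND_92 were highest for TNF and the brighter IL1B probe set, and the groups overlapped for IL18.

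IL6, the cytokine that drives the acute phase response, was above background in 1 of 10 ND kidneys and 0 of 10 control kidneys. Against each array's own highest tag value it was above in 2 ND kidneys, ND_47 and ND_31, and 0 control kidneys. Its log2 signal had a minimum of 2.18, a median of 2.22 and a maximum of 6.41 in ND, against 2.20, 2.22 and 2.27 in controls. The maximum belonged to ND_47, whose signal was 15.9 times the background level, and the next ND animal, ND_31, lay just under that level at 2.38. Only 1 array of 20 was above background for 2.44% of all probe sets. As deposited, the other ND kidneys read between 2.18 and 2.25, inside the control range or just under it.

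The group means of IL6 were 2.65 ± 1.32 in ND and 2.23 ± 0.02 in controls (SD, n = 10 each), a difference of 0.42 ± 0.41 (SE) with an adjusted p of 0.468. The ND mean was 1.18-fold the background floor of the controls, with the 9 ND arrays that lay under background taken as read. That value is no lower bound, and it rests on ND_47, since the other 9 ND arrays averaged 2.23. Without ND_47 the difference was 0.0038 (95% interval -0.04 to 0.05; adjusted p = 0.919). With each array's mean tag level subtracted, the SD of IL6 over the 10 controls was 0.0039, against 0.02 as deposited. On that scale 5 of 10 ND arrays, ND_47 among them, lay above the highest control (0.265), and the lowest ND array was at 0.255. Of these arrays only ND_47 exceeded background as deposited.

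**Figure D2:**
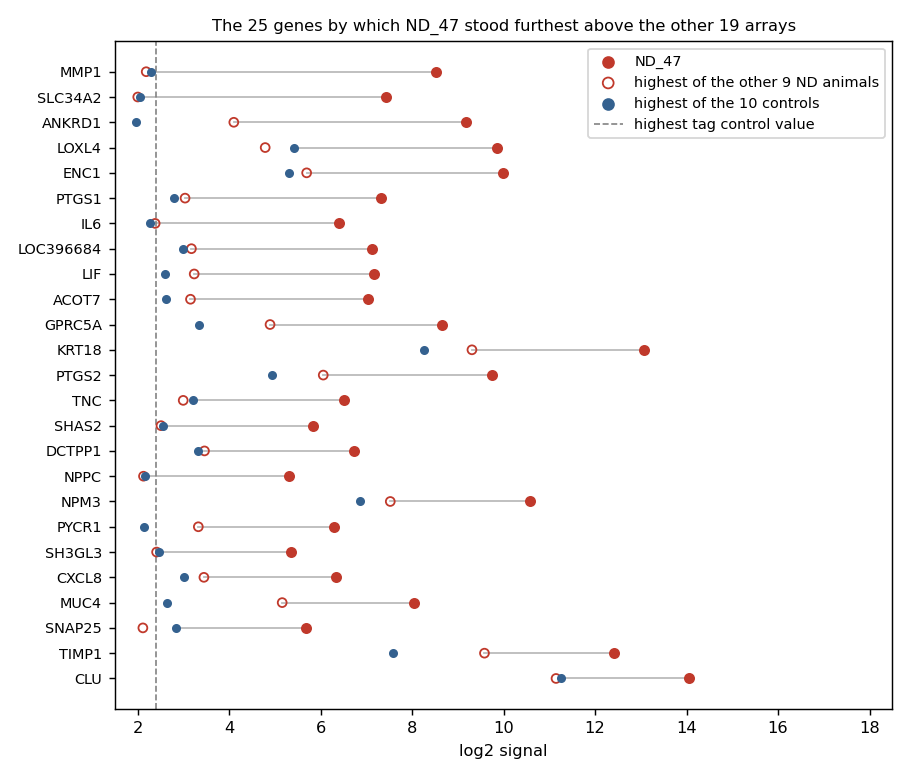
Log2 signal (horizontal axis) of the 25 genes by which ND_47 stood furthest above the other 19 arrays, with ND_47 as filled red points, the highest of the other 9 ND animals as open red points and the highest of the 10 controls as blue points. IL6 stands among them at 6.41, with all other animals under the background line.

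TNF, which acts at the head of the NF-kB response, was above background in 2 of 10 ND kidneys and 0 of 10 control kidneys. Its minimum, median and maximum were 2.24, 2.29 and 2.69 in ND, against 2.17, 2.30 and 2.35 in controls. The arrays above background were ND_47 (2.69) and ND_92 (2.61), and ND_194 lay just under it at 2.40.

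TNF means were 2.36 ± 0.16 in ND and 2.28 ± 0.06 in controls (SD, n = 10 each), and the difference of 0.08 ± 0.05 (SE) did not pass (adjusted p = 0.282). It was 0.045 without ND_47, 0.054 without ND_92 and 0.0098 without both (adjusted p = 0.824). The count of positive arrays turned on where background was drawn. Against each array's own highest tag value, 6 ND arrays and 0 control arrays were above it, and against the tag and tryptophan control probe sets together (2.79) no array of either group was. With every array shifted to the same median the difference was -0.0071 (adjusted p = 0.936), a setting under which 35.8% of all probe sets passed.

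IL1A, the interleukin 1 form that is active without caspase-1 and is released from dying cells, was not detected. Both probe sets lay under background on all 20 arrays. Signals of the brighter one ran from 1.98 to 2.18 in ND, with a median of 2.02, against 2.02 to 2.10 in controls, with a median of 2.04. Those of the dimmer one ran from 1.94 to 2.00 in ND and from 1.97 to 2.03 in controls. Its median was 1.97 in ND and 1.99 in controls.

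The differences were -0.01 (adjusted p = 0.752) and -0.02 (adjusted p = 0.294). The mean tag level itself was 0.03 lower in ND (1.94 ± 0.02) than in controls (1.97 ± 0.02; SD, n = 10 each), about the size of these differences. With arrays shifted to the same mean tag level they were 0.016 and 0.0044. The permutation p of the dimmer probe set was 0.0416. No direction is given for a gene at background in both groups.

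IL1B, the secreted interleukin 1 of activated myeloid cells, had its highest readings in ND kidneys. The brighter probe set had a minimum of 3.74, a median of 4.44 and a maximum of 5.90 in ND, against 3.48, 3.95 and 4.64 in controls. In ND the upper end was held by ND_47 (5.90), ND_92 (5.05), ND_100 (4.82) and ND_193 (4.80), each above the highest control, Control_197. The groups overlapped, and 1 control, Control_156, lay below the lowest ND animal.

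Mean IL1B was 4.59 ± 0.60 in ND and 4.01 ± 0.34 in controls (SD, n = 10 each), and 9 of 10 ND animals were above the control mean. The difference was 0.57 ± 0.21 (SE), a 1.49-fold higher ND mean with a 95% interval of 1.09-fold to 2.02-fold. The unadjusted p was 0.0141 (permutation p = 0.0125) and the adjusted p was 0.102, so the call was not made. Without ND_47 and ND_92 the difference was 0.35 (adjusted p = 0.232).

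The second IL1B probe set showed the same animal and little else. Its signal in ND_47 was 3.56, the other ND arrays read between 2.37 and 2.61, and the controls between 2.46 and 2.57. Group means were 2.59 ± 0.35 in ND and 2.50 ± 0.03 in controls (SD, n = 10 each), a difference of 0.09 (adjusted p = 0.578) that was -0.02 without ND_47. By count 9 ND arrays and 10 control arrays exceeded the tag level, but with the tryptophan control probe sets included 1 ND array and 0 control arrays did. The ending of its name marks probes shared by several transcripts. In the RefSeq table of assembly Sscrofa11.1, IL1A and IL1B are neighbouring genes and a second pig gene, IL1B2, also carries the name IL1B, so signals of IL1B and IL1B2 may not be separable here.

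IL18, the interferon-gamma inducing member of the family, was the brightest of the 7 probe sets in both groups. Its minimum, median and maximum were 6.66, 7.24 and 7.96 in ND, against 5.73, 6.76 and 7.90 in controls. The highest ND readings were those of ND_22 (7.96) and ND_47 (7.79). Among controls Control_02 stood at the top (7.90), with Control_155 (7.22) next and Control_134 (5.73) and Control_156 (5.85) at the bottom. The ranges overlapped, with 4 controls below the lowest ND animal and 1 ND animal above the highest control.

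IL18 averaged 7.28 ± 0.43 in ND and 6.68 ± 0.66 in controls (SD, n = 10 each). The difference was 0.60 ± 0.24 (SE), a 1.51-fold higher ND mean with a 95% interval of 1.07-fold to 2.15-fold. The unadjusted p was 0.0231 (permutation p = 0.0280) and the adjusted p 0.123. Leaving out Control_02 alone raised the difference to 0.73 and brought the adjusted p to 0.0475 (6.49% of all probe sets passed without it), while leaving out any other single animal gave adjusted p-values between 0.0742 and 0.199.

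IL18 also differed with animal number within the ND group. The 7 ND animals numbered up to 100 read 7.48 ± 0.34 (SD), and the 3 numbered above 100 read 6.82 ± 0.17 (SD). The 1 control numbered up to 100 read 7.90, and the 9 numbered above 100 averaged 6.55 ± 0.53 (SD). With a term for this split the IL18 difference was 0.08 (95% interval -0.43 to 0.58; adjusted p = 0.939), and over the 8 highest-numbered animals (3 ND, 5 control) it was 0.15 (adjusted p = 0.730). The term rests on Control_02 within the controls.

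For IL1B the same split gave closer means. In ND it averaged 4.62 ± 0.71 (SD, n = 7) for numbers up to 100 and 4.50 ± 0.27 (SD, n = 3) above 100, and controls above 100 averaged 4.03 ± 0.36 (SD, n = 9). With the term its difference was 0.55 (95% interval -0.03 to 1.12; adjusted p = 0.398), and over the 8 highest-numbered animals it was 0.28 (adjusted p = 0.586). With the term 2.11% of all probe sets passed, and over those 8 animals 0.242% did.

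**Figure D3:**
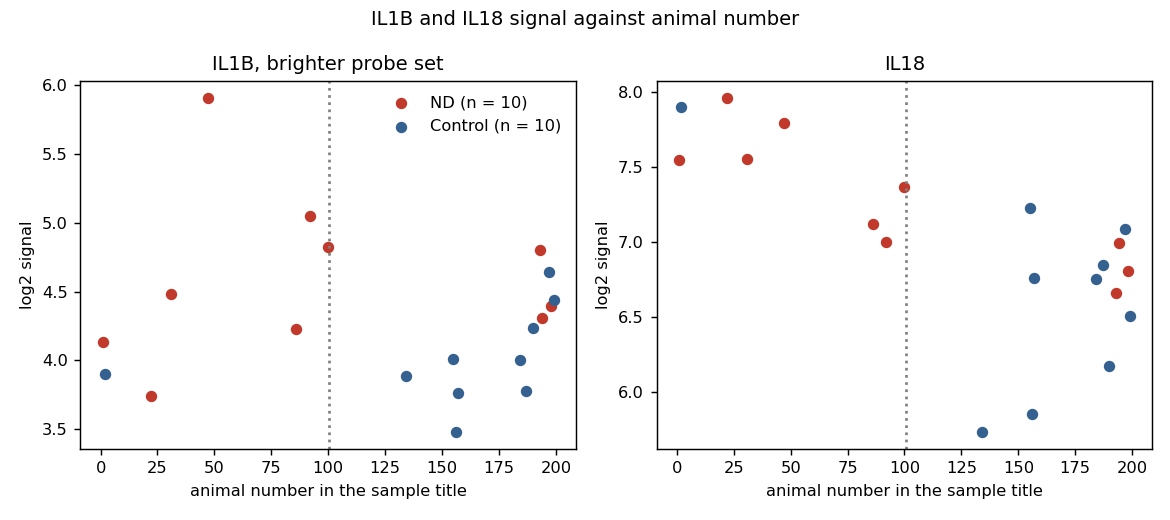
Log2 signal (vertical axis) of the brighter IL1B probe set, left, and of IL18, right, against the animal number of the sample title (horizontal axis), with 1 point per animal; the dotted line separates numbers up to 100. The 7 ND animals numbered up to 100 average 7.48 for IL18, against 7.90 in the 1 such control, and IL1B shows its 2 highest animals, ND_47 and ND_92, on that side.

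**Figure D4:**
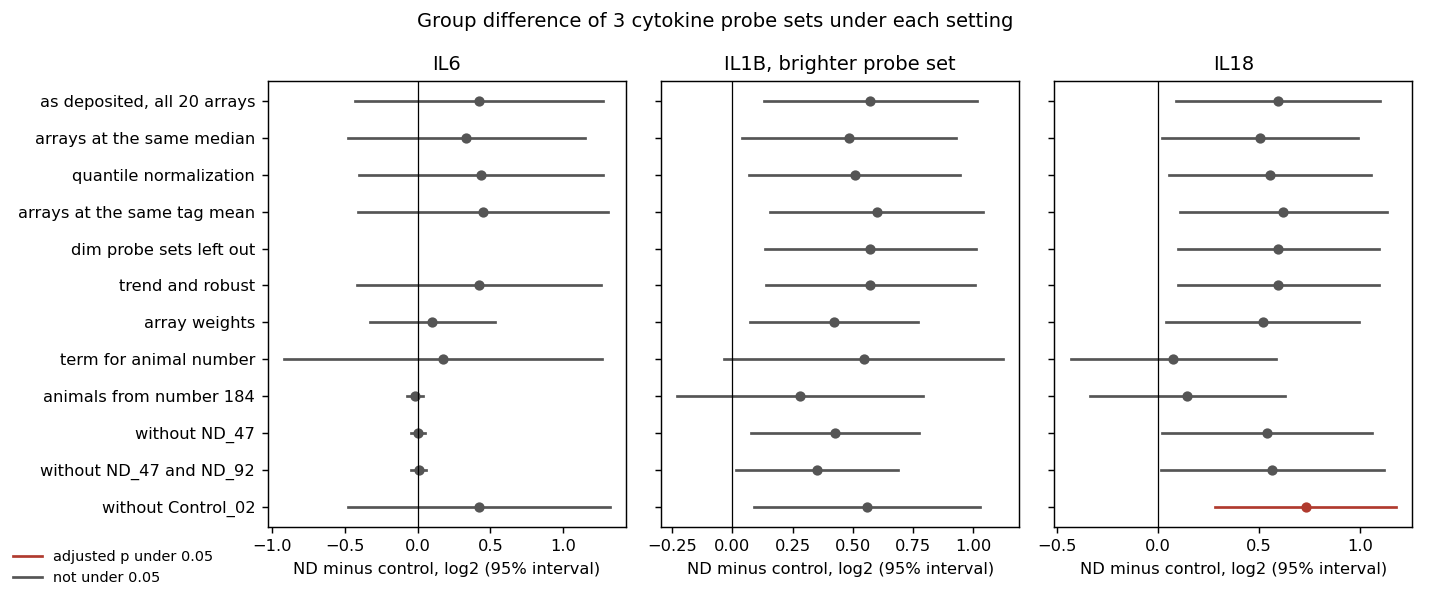
ND minus control differences (log2, horizontal axis) with 95% intervals for IL6, the brighter IL1B probe set and IL18 under 12 settings (rows); red marks an adjusted p under 0.05. The IL6 interval closes around 0 without ND_47, IL1B stays above 0 in every row with an interval that reaches 0 in 2, and IL18 moves to 0.08 with the animal number term and passes without Control_02.

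The genes around these cytokines were read from lists by role, each gene by its brightest probe set. The lists held 101 genes, and the 51 with a platform symbol are the listed genes counted below. They covered 6 of 13 receptors, 4 of 12 maturation genes and 6 of 16 NF-kB genes, so these counts do not describe whole pathways. IL6ST, IL1R2, IL1RAP, IL1RN, IL18RAP, NLRP3, RELA and TNFAIP3 were among the genes not read. Of 51 listed genes with a platform symbol 7 rose in ND, none fell and 44 did not pass, where 5.45% of all 6765 genes rose and 4.55% fell. With every array shifted to the same median, which moved the median of all probe sets to -0.12, against -0.03 as deposited, 7 were higher and 8 lower, where 5.94% of all genes were higher and 23.8% lower. Their median difference was 0.13, against -0.02 over all genes, and without ND_47 it was 0.07. For the 18 induced genes the median was 0.12, and -0.05 without ND_47. With the animal number term 2 of the 51 passed, CCL2 and TNIP1, where 0.872% of all genes rose, and over the 8 highest-numbered animals none did, where 0.325% passed.

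None of the 6 receptors with a platform symbol, of 13 listed, passed. The signalling receptor of interleukin 1, IL1R1, read 6.79 ± 1.16 in ND and 6.45 ± 0.65 in controls (SD, n = 10 each; adjusted p = 0.567), with ND_47 at 9.36 and no other array above 7.67. The TNF receptors differed by 0.69 ± 0.27 (SE) for TNFRSF1B, the form found mainly on leukocytes and endothelium (adjusted p = 0.115), and by -0.12 ± 0.16 (SE) for TNFRSF1A, the widely expressed form (adjusted p = 0.611). Of the single animals left out in turn, ND_193 was the one without which TNFRSF1B passed. IL18R1, a chain of the IL18 receptor, was at background on all 20 arrays, and IL6R, the IL6-binding chain, exceeded it on 0 ND arrays and 1 control array.

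IL18BP, the soluble protein that neutralizes IL18, was detected on all arrays at 7.91 ± 0.47 in ND and 7.72 ± 0.32 in controls (SD, n = 10 each; adjusted p = 0.440). LIF, a ligand of the interleukin 6 family, followed the IL6 pattern: ND_47 read 7.16, the next array 3.24, and the difference of 0.52 did not pass (adjusted p = 0.408).

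CASP1, which encodes the protease that cuts IL1B and IL18 precursors, was 2.26-fold higher in ND (log2 difference 1.18 ± 0.25 SE; adjusted p = 0.00744). Its signal ran from 3.68 to 5.93 in ND and from 3.12 to 3.92 in controls, and the ND mean was 4.71 ± 0.79, against 3.53 ± 0.21 in controls (SD, n = 10 each). The highest CASP1 value was not that of ND_47 (5.62), and without that animal the adjusted p was 0.0117. With the animal number term CASP1 differed by 0.94 and did not pass (adjusted p = 0.143). GSDMD, the pore protein through which mature IL1B leaves the cell, differed by 0.44 (adjusted p = 0.426), and it was 1 of 3 maturation genes of 4 that did not pass.

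Among 15 adaptors and kinases 1 passed. TYK2, a Janus kinase used by IL6-type receptors, rose by 0.49 ± 0.09 (SE; adjusted p = 0.00270) on its brightest probe set, while its dimmer probe sets differed by -0.04, -0.02 and -0.13. CASP8, a caspase recruited to the TNF receptor complex, differed by 0.85 ± 0.26 (SE; adjusted p = 0.0554) and passed without ND_47 (adjusted p = 0.0221), ND_193 or ND_198. SOCS3, the feedback inhibitor of IL6 signalling, was at background on all arrays.

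Of the 6 NF-kB genes with a platform symbol, of 16 listed, 2 rose. TNIP1, a partner of the ubiquitin-editing enzyme A20, read 8.20 ± 0.19 in ND and 7.63 ± 0.18 in controls (SD, n = 10 each), a difference of 0.57 ± 0.08 (SE; adjusted p = 0.000276) that was 0.59 with the animal number term (adjusted p = 0.00503). Its dimmer probe sets differed by 0.22 and -0.06. CYLD, a deubiquitinase, rose by 0.29 ± 0.08 (SE; adjusted p = 0.0342), a call lost without ND_22, ND_86, ND_92, ND_100, Control_155, Control_156, Control_187 or Control_190 (adjusted p up to 0.0640). NFKB1 was at background on all arrays, and NFKBIA, the main NF-kB inhibitor and an early target, differed by -0.02 (adjusted p = 0.913). The related inhibitor NFKBIB differed by 0.18 (adjusted p = 0.161) and IKBKG, a subunit of the activating kinase complex, by -0.45 (adjusted p = 0.0553). IKBKG passed as lower in ND without ND_100, ND_193 or Control_134 (smallest adjusted p 0.0389). It also passed at equal medians (adjusted p = 0.0226), where 23.8% of all genes were lower.

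Of 18 genes that TNF, interleukin 1 or IL6 are known to induce, 3 rose. CCL2, the monocyte chemoattractant, averaged 9.40 ± 1.01 in ND and 5.56 ± 0.92 in controls (SD, n = 10 each; adjusted p = 1.77e-05). Its lowest ND value, 7.93, was above its highest control value, 6.90, and the groups did not overlap for 0.591% of all genes. VCAM1, an endothelial adhesion molecule, rose by 1.70 (adjusted p = 0.00274). With the animal number term CCL2 passed (adjusted p = 0.00189) and VCAM1 did not (adjusted p = 0.05001). ICAM1, named after its values were seen, rose by 0.96 (adjusted p = 0.0110) and was highest in ND_47 (10.47, next array 9.55). Without ND_47 it rose by 0.80 (adjusted p = 0.00542), and with the animal number term it did not pass (0.68, adjusted p = 0.213). Only 10 of the 18 had a higher mean in ND. FGG, also named after its values were seen, had the widest difference below 0 of the 18. It was -1.71 ± 0.82 (SE) and did not pass (adjusted p = 0.172).

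**Figure D5:**
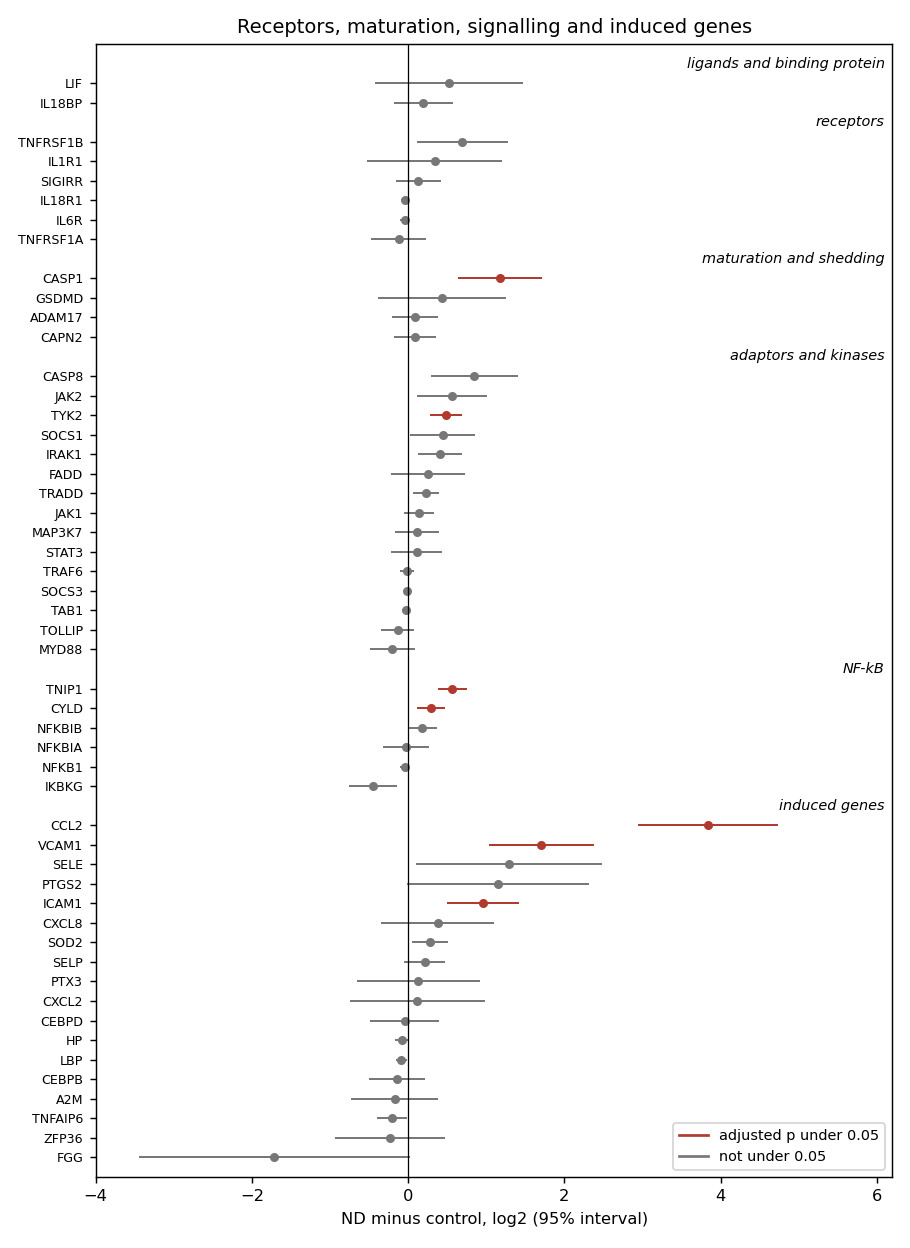
ND minus control differences (log2, horizontal axis) with 95% intervals for the 51 genes around the cytokines, grouped by role; red marks an adjusted p under 0.05. The 7 genes in red, CASP1, TYK2, TNIP1, CYLD, CCL2, VCAM1 and ICAM1, all lie above 0.

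Markers of other cell types moved in part with the groups, where 5.45% of all 6765 genes rose and 4.55% fell. Among the 10 markers of monocytes and macrophages, 3 were higher in ND (LAPTM5, CTSS and TYROBP) and 3 lower (CD14, CD163 and MRC1). ITGAM was at background on all arrays. CD163 differed by -2.04 (adjusted p = 0.00193), and CTSS, the brightest of the 10, by 0.85 (adjusted p = 0.00259). The summed level of the 10, in which CTSS weighs most, ran from 11.56 to 12.87 in ND and from 11.13 to 12.05 in controls on the log2 scale. Of 11 T and NK cell markers 4 rose (7.15 to 8.78 in ND, 6.52 to 7.36 in controls), and PRF1 was at background on all arrays. Of 7 neutrophil markers 1 rose, FCGR3A (mean 9.77 in ND, 8.80 in controls; adjusted p = 0.0127). S100A9 averaged 4.19 in ND and 4.50 in controls (adjusted p = 0.694), and S100A8, S100A12, TREM1, MMP9 and ELANE were at background on all arrays. The summed level of this list (8.79 to 10.76 in ND, 8.32 to 9.55 in controls) was therefore mostly the signal of FCGR3A. It does not tell whether neutrophils differed. Of 8 endothelial markers 1 rose (10.43 to 12.15 in ND, 10.79 to 11.37 in controls), and KDR was at background on all arrays. None of 3 B and plasma cell markers passed (10.06 to 12.87 in ND, 10.37 to 11.77 in controls). ND_47 had the highest summed level of the neutrophil list, mostly FCGR3A signal, and of the endothelial list. The part of these cells in the CASP1, IL1B and CCL2 values was not tested.

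IL1B and IL18 were bright enough to look for genes of like pattern, over 5896 genes detected on at least 10 arrays, with each group's mean taken off. For IL1B the 3 highest Pearson correlations over the 20 arrays were those of PPM1F, a protein phosphatase (r = 0.86, Spearman 0.76), PHLDA2 (r = 0.85, Spearman 0.77) and RRS1, a ribosome assembly factor (r = 0.83, Spearman 0.65). Without the 2 arrays farthest from the IL1B median, ND_47 and Control_197, they were 0.70, 0.72 and 0.61. For IL18 they were COPS5, a subunit of the COP9 signalosome (r = 0.75, Spearman 0.80), PSMD6, a proteasome subunit (r = 0.73, Spearman 0.69), and KDSR, an enzyme of sphingolipid synthesis (r = 0.72, Spearman 0.70), and without Control_02 and Control_134 they were 0.83, 0.78 and 0.71. These are the highest of many values, the arrays share their floor and scaling, and none of the 6 genes passed between groups (adjusted p 0.135 to 0.529).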

How the data were processed

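The authors deposited 1 log2 signal per probe set and array, inferred from the values (0.88 to 16.2). The background correction, summarization and normalization behind them are not given in the sources used here and can move dim probe sets. TRIzol was used for RNA, of which 250 ng went into biotin-labelled cRNA, per the labels' protocols. The labels describe 2 kidney specimens per animal and give 1 array for each number, taken as 1 animal. Of 24123 probe sets, 124 array controls and 64 reporter controls were left out. Symbols came from the platform annotation: 10069 probe sets had 1 symbol, 198 several and 13668 none here. Groups and animal numbers came from sample titles.

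Probe sets were compared with limma 3.58.1 in R 4.3.3 (lmFit, eBayes, no covariate). Two-sided permutation tests of single probe sets used 100000 resamples (scipy 1.17.1). On simulated data for the 23935 probe sets, with 10 arrays a group, 46% of rises of 0.5 and 70% of rises of 1 on the log2 scale were recovered. The simulation changed 50 probe sets at each size of change and drew independent noise, whereas 1713 probe sets passed in the data. With fewer changed probe sets the adjusted threshold is stricter, so these rates are not the recovery of this comparison. Changes were placed only in probe sets brighter than those of IL6, TNF and IL1A and the dimmer one of IL1B. These rates therefore do not apply to those dim cytokine probe sets. The number of arrays limits the precision. The cytokines and the lists by role were chosen with earlier results of these data known. Named genes were all cytokine probe sets, direct receptors and inhibitors, up to 2 genes per list with the smallest adjusted p, and 3 genes of like pattern. Outside that rule, SOCS3, NFKB1, NFKBIA, NFKBIB, IKBKG, ICAM1, FGG and the ND_47 genes of the closing section were picked with their values known. Alternatives covered scaling (equal tag means was added after the data were seen), array weights, the variance model, a filter on dim probe sets, animal number, subsets of animals, the threshold, the summary per gene and the background level.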

Additional observations from a re-analysis of the deposited data

Results flagged for a closer look

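In the ND group, ND_47 lay far from the other 9 animals for IL6 (6.41) and for the dimmer IL1B probe set (3.56). ND_100 lay far above the rest for the brighter IL1A probe set, at 2.18, which is under background. Among controls, Control_184 lay far above the rest for IL6R, at 2.45, just above background. These 4 readings came from 40 groups of 10 values examined, which do not cover every gene named here. LIF in ND_47 (7.16, next array 3.24), for one, is not among the 4. Chance sets apart about 1 in 20 of such groups if they are independent and normal, but the same arrays recur in all of them.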

How the results depend on the processing

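The permutation test was unadjusted and was set against the unadjusted limma p, all other alternatives against the adjusted p. No paired analysis was possible because ND and control animals share no animal number. Of the 31 alternatives run for IL18, 30 kept its direction and its side of the threshold (its permutation p of 0.0280 and unadjusted limma p of 0.0231 were both under 0.05) and 1, without Control_02 (0.73), brought it past, and all 31 run for the brighter IL1B probe set kept both (0.0125 and 0.0141 likewise). Leaving out each animal in turn gave differences of 0.49 to 0.73 for IL18, 0.43 to 0.67 for brighter IL1B, -0.0211 to 0.11 for dimmer IL1B, 0.0038 to 0.47 for IL6 and 0.045 to 0.095 for TNF. Signs turned near 0 for IL6 over the 8 animals with the highest numbers (-0.0189), TNF at equal medians (-0.00706), the brighter IL1A probe set with quantile normalization (0.0131) or equal tag means (0.0155), the dimmer one likewise (0.00123 and 0.00438), and dimmer IL1B at equal medians (-0.00216), without ND_47 (-0.0211) or without ND_47 and ND_92 (-0.0199). The dimmer IL1A probe set passed at equal medians (-0.11, adjusted p = 0.0494), the 1 cytokine probe set called there, where 8565 of 23935 probe sets were called (1055 higher, 7510 lower, against 914 and 799 as deposited) and the median of all probe sets moved to -0.12, against -0.03. Its permutation p was 0.0416 and its unadjusted limma p 0.149 (difference -0.0216). Quantile normalization called 923 higher and 1253 lower. In all, 1713 probe sets were called as deposited, 621 at an adjusted p under 0.01, 505 with the animal number term and 58 over those 8 animals, and 1297 to 2289 with 1 animal left out. Of the 51 listed genes 7 were called as deposited, 15 at equal medians (7 higher, 8 lower), 2 with the term, 0 over those 8 animals, and 6 to 12 with 1 animal left out (12 without ND_193). With 1 animal left out, 0 or 1 cytokine probe sets were called. IL18BP turned to -0.0347 and -0.0944 and IL1R1 to -0.10 and -0.28 with the term and over those 8 animals, IL1R1 to -0.0945 without ND_47 and ND_92, and TNFRSF1B to -0.10 over those 8 animals. The cause of these changes was not tested, beyond the smaller number of animals. Filtering dim probe sets left no value for IL6, TNF and IL1A. Signals near background limit IL6, TNF and IL1A to a statement of detection.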

Other observations

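The kidney of ND_47 differed from the other 19 in more than IL6. By the gap between ND_47 and the next highest array, IL6 ranked 7 of 6765 genes, with a gap of 4.02 log2 units. The genes with wider gaps were the collagenase MMP1 (8.52 in ND_47, 2.19 at most in the other ND animals and 2.30 at most in controls), the phosphate transporter SLC34A2 (7.43, with no other array above 2.05), the stretch-responsive gene ANKRD1 (9.18, next array 4.10), LOXL4 (9.86, next array 5.42), ENC1 (9.99, next array 5.70) and the cyclooxygenase PTGS1 (7.32, next array 3.04). Below IL6 came, among others, LIF, the inducible cyclooxygenase PTGS2 (9.74, next array 6.06), tenascin TNC (6.50, next array 3.22), the neutrophil chemokine CXCL8 (6.34, next array 3.45) and the protease inhibitor TIMP1 (12.4, next array 9.58).

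Of the 51 listed genes around the cytokines, 20 (39.2%) were highest in ND_47, against 1350 of all 6765 genes. They included 10 of 18 induced genes and 0 of 6 NF-kB genes. TNF and IL1B, by their brightest probe sets, were also highest in ND_47, with ND_92 next for both, while IL18 was highest in ND_22.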
